A study of Mus musculus with 3 samples.

Results

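The basement membrane is the thin sheet of matrix on which the epidermis rests, and 9 genes of its components are described here. They encode the laminin chains Lama3, Lama5, Lamb3 and Lamc1, the collagen chains Col4a1, Col4a2 and Col7a1, nidogen 1 (Nid1) and the proteoglycan perlecan (Hspg2). They are named by symbol and not by a threshold on their values, and are 9 of the 31053 genes in the count tables. The study profiled single cells of ear epidermis in 3 droplet libraries. The mice were C57BL/6N, an inbred strain, at an age of 9 weeks, and the libraries are replicates 1 to 3 of 1 group. The labels name no treatment and no genetic change. After dispase had loosened the skin, the epidermis was lifted off the dermis and its cells were freed with trypsin, so transcripts of the cells were measured and not the sheet itself. The labels do not state whether each replicate is another animal, so p-values may reflect only technical spread between libraries.

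Laminins are trimers of an alpha, a beta and a gamma chain. In skin, the chains Lama3 and Lamb3 are part of the laminin that anchors hemidesmosomes, the junctions that fix basal keratinocytes to the sheet, and Lama5 and Lamc1 belong to the other major epidermal laminins. Type VII collagen, made from Col7a1, forms the anchoring fibrils that tie the sheet to the dermis, and loss of it, of Lama3 or of Lamb3 causes skin blistering in humans and mice. Type IV collagen is the network of nearly every basement membrane, assembled from alpha chains of which Col4a1 and Col4a2 are the common pair, while nidogens and perlecan link the laminin and collagen networks. Fibroblasts of the dermis are a known source of type IV collagen and nidogen for the skin.

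The promoters of 4 members are shown because, among the 7 members tested below, these genes had the widest fitted differences between spinous and basal cells. The motif content was also a reason, so the motif counts are a description and no test against all windows. Each is the run of 200 bases before the first RefSeq or GENCODE start in the gene's RefSeq promoter entry (GRCm38.p6; 7 of the 9 genes have an entry), written 5′ to 3′ along the strand of the gene, with the motif GGGCGG of either orientation in capitals.
Lamb3, chr1:193301793-193301992, plus strand: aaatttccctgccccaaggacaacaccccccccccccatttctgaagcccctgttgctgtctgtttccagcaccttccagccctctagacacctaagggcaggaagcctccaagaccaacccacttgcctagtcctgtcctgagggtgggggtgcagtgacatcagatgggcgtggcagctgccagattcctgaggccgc
Col7a1, chr9:108953386-108953585, plus strand: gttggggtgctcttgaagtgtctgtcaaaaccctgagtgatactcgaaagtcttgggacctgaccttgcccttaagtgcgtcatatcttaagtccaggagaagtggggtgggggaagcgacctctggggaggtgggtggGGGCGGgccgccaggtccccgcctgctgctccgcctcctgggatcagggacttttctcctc
Lama5, chr2:180225860-180226059, minus strand: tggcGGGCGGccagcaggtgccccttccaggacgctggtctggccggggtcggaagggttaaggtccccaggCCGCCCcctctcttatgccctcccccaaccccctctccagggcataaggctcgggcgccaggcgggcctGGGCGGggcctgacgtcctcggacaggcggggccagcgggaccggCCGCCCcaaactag
Hspg2, chr4:137468569-137468768, plus strand: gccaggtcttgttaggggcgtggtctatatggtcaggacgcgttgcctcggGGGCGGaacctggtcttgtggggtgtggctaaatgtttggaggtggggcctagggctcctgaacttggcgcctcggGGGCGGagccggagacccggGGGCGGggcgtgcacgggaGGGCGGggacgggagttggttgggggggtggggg
GGGCGG, the core of the GC box that Sp factors bind, was found 4 times in the Hspg2 window, 4 times in that of Lama5, once in that of Col7a1 and 0 times in that of Lamb3. It was present in 31.0% of 32851 mouse windows of the same length. CCAAT (29.3% of windows), TGANTCA, the site of AP-1 factors (5.48%), and TATAAA (9.96%) were searched on both strands and found in none of the 4 windows. No match thus overlaps one of another motif. The Lamb3 window lies inside the wider span that GENCODE gives this gene, which has a start further upstream. A match is a description of the letters and not a measured binding site.

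Of 6078 barcodes, 5340 passed the filters of at least 500 detected genes and at most 10% mitochondrial UMIs (unique molecular identifiers, each a captured transcript). They gave 944, 2212 and 2184 cells with 15527509, 24071995 and 27501411 UMIs in replicates 1 to 3. Between libraries, 3, 4 and 9 barcodes were shared and 0 were common to all. Cells were grouped by gates on the share of their UMIs: basal (Krt5 plus Krt14 at 0.5% or more, Krt1 plus Krt10 below it), transitional (both sums at 0.5% or more), spinous (only Krt1 plus Krt10) and granular (Lor at 1% or more). Cells with 2 or more of Sox9, Fst, Lgr5, Cd34 and Wif1 detected were called follicle cells first. The gates took 2312 basal, 196 transitional, 2099 spinous, 424 granular and 122 follicle cells, and 187 cells passed none. Median depth was 8452 UMIs in basal, 10705.5 in transitional, 15047 in spinous, 19883 in granular and 4702.5 in follicle cells.

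Markers outside the gates went with the names. Levels are given as UMIs per 1000000 UMIs of a cell group in a library (UPM). Krt15, a basal keratin, stood at 24.1 ± 19.1 UPM in spinous and 1009 ± 146 in basal cells (SD, n = 3). The suprabasal gene Sbsn stood at 5728 ± 404 UPM in spinous and 62.6 ± 19.3 in basal cells, and Krtdap at 12269 ± 862 in spinous and 1008 ± 413 in basal cells. Flg, the filaggrin gene, reached 3106 ± 1265 UPM in granular cells, against 58.6 ± 71.1 in spinous cells. The follicle regulator Lhx2 reached 152 ± 37.0 UPM in follicle cells, against 0.973 ± 0.609 in basal cells, and the follicle keratins Krt17 and Krt79 were higher as well (3531 ± 1723 and 1168 ± 1027 in follicle, 24.5 ± 21.0 and 17.7 ± 14.2 in basal cells). Postn, another follicle marker, was at 303 ± 71.8 UPM in follicle and 299 ± 110 in basal cells. Of the 122 follicle cells, 75 also passed the basal keratin gate and 44 passed no keratin or Lor gate.

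The summed level of the 9 genes was highest in follicle and basal cells and low above them. It was 413 ± 79.8 UPM in follicle cells. Along differentiation the sum was 363 ± 14.8 in basal, 196 ± 27.4 in transitional, 26.1 ± 4.50 in spinous and 13.6 ± 0.521 in granular cells (SD, n = 3). Basal cells held 31.7% ± 3.37 of all UMIs but 87.5% ± 2.87 of those of Lamb3, 83.5% ± 2.41 of those of Col7a1, 81.1% ± 2.62 of those of Lama5, 71.8% ± 4.35 of those of Lama3 and 62.5% ± 8.50 of those of Lamc1. Of the 9 genes, 7 entered the tests. A gene had to reach the low-count limit of 3.53 UPM in at least 3 profiles of a library and gate. Col4a1 reached it in 2, both of follicle cells, and Nid1, with 2 UMIs in all gates together, in 0. Col4a2 reached it in the 3 follicle profiles alone, so its difference between follicle and basal cells is given as a description, with no test.

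**Figure D1:**
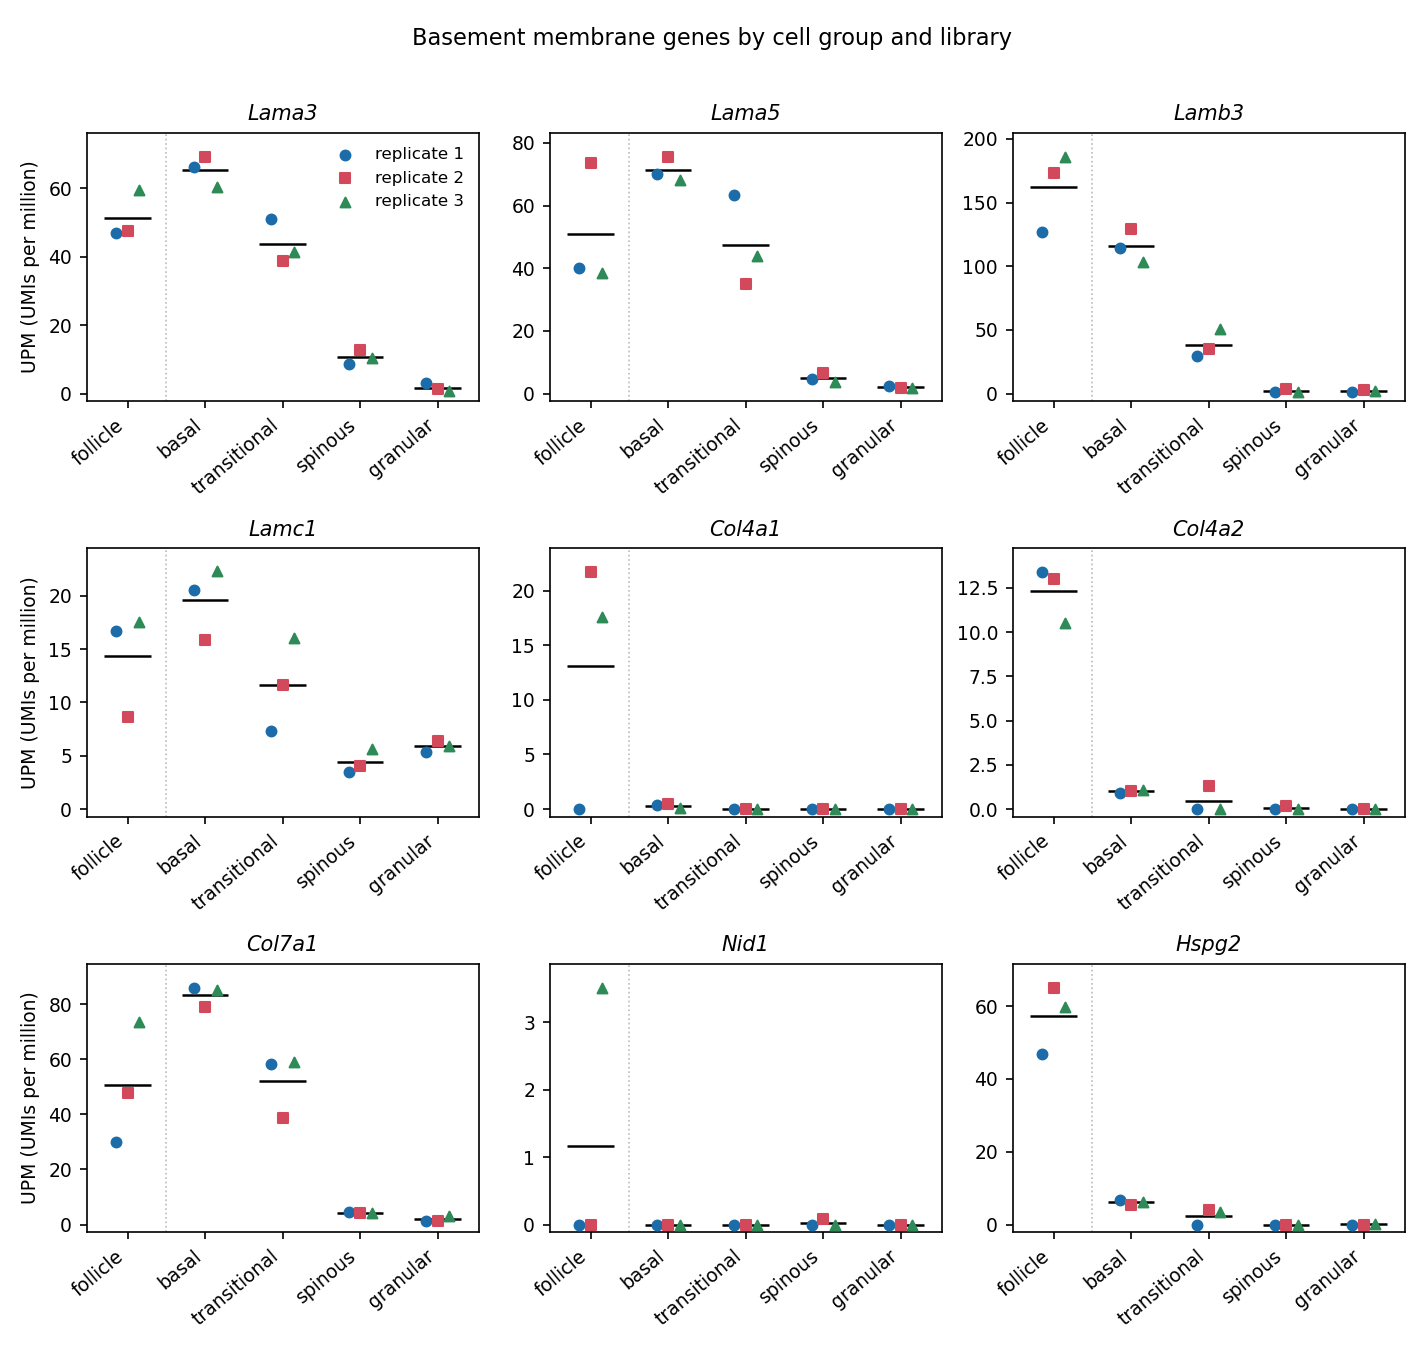
Levels in UPM of each of the 9 genes (y axis, linear, own scale per panel) in the 5 cell groups (x axis). Points are the 3 libraries and bars their means. The laminin chains and Col7a1 are high in follicle and basal cells and low in spinous and granular cells, while Hspg2, Col4a1 and Col4a2 are highest in follicle cells, with Col4a1 at 0 in replicate 1 of that group.

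Spinous cells, which have left the basement membrane, were compared with basal cells, which rest on it. All 7 tested members were lower in spinous cells and 0 were higher. DESeq2 gave the same counts, and 0 members were higher at an unadjusted p of 0.05. Of all 10806 genes tested, 34.2% were lower and 35.8% higher in spinous cells. The median log2 difference of the 7 members was -3.50, against 0.01 over all genes. Log2 differences, with standard errors, and adjusted p-values come from edgeR's quasi-likelihood test on UMIs summed per library and gate, with Benjamini-Hochberg adjustment over all genes. They are scaled with TMM. With plain total UMIs the median of all genes was -0.37 for spinous against basal cells and -0.96 for granular against spinous cells (-0.25 with TMM), so each difference is read against that median. For follicle against basal cells the medians were 0.11 with total UMIs and -0.05 with TMM.

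Lamb3 (chr1:193207699-193343878, plus strand; gene positions are from GENCODE M21 on GRCm38) encodes the beta chain of the hemidesmosomal laminin and fell the furthest among the members with UMIs in both groups. Its level was 0.931, 3.33 and 1.54 UPM in spinous cells of replicates 1 to 3, against 114, 129 and 103 in basal cells. The groups lie far apart in every library. The log2 difference was -5.43 ± 0.18, 43.3-fold lower (adjusted p = 2.43e-17). Granular cells held 1.19, 3.17 and 1.97 UPM, a range that overlaps the spinous one. The annotated gene overlaps 6 others, among them Hsd11b1 and G0s2, and the sources used here do not give the strand setting of the counting.

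Lama3 (chr18:12333819-12583013, plus strand), the alpha chain of the same laminin, fell less. Spinous cells had 8.78, 12.6 and 10.5 UPM, against 66.2, 69.3 and 60.4 in basal cells. The groups did not overlap, and the log2 difference was -2.21 ± 0.11, 4.64-fold lower (adjusted p = 3.76e-14). The fitted intervals of these chains do not overlap: from -5.81 to -5.06 for Lamb3 and from -2.45 to -1.98 for Lama3 (95%).

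Lama5 (chr2:180176373-180225859, minus strand) encodes the alpha chain shared by the broadly expressed laminins of epithelia. Its level was 4.52, 6.42 and 3.54 UPM in spinous cells, against 70.0, 75.6 and 68.3 in basal cells. Every spinous value lies below every basal one, 11.3-fold lower (log2 difference -3.50 ± 0.14, adjusted p = 3.42e-16). Lamc1 (chr1:153218922-153332786, minus strand), the gamma chain found in most laminins, had 3.46, 4.04 and 5.61 UPM in spinous cells, against 20.5, 15.8 and 22.4 in basal cells. It was 3.35-fold lower (log2 difference -1.75 ± 0.15, adjusted p = 6.45e-10).

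Col7a1 (chr9:108953586-108984875, plus strand), the gene of the anchoring fibrils, varied little between libraries. It stood at 4.39, 4.36 and 4.15 UPM in spinous cells, against 86.0, 79.1 and 85.3 in basal cells. The fall was 14.9-fold (log2 difference -3.90 ± 0.14, adjusted p = 5.6e-17). Hspg2 (chr4:137468769-137570630, plus strand), a large heparan sulfate proteoglycan, had 0 UMIs in spinous cells of all 3 libraries, against 6.73, 5.48 and 6.24 UPM in basal cells. With 3 counts over the spinous group as a floor it was at least 67.6-fold lower (adjusted p = 4.86e-10). In basal cells it rested on 128 UMIs.

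The common type IV collagen pair was close to undetected in both layers. Col4a2 (chr8:11312805-11449287, plus strand) had 2 UMIs in spinous and 21 UMIs in basal cells, a pooled level 16.6-fold lower with an exact 95% counting interval of 4.06 to 146 (edgeR adjusted p = 0.000826). Col4a1 (chr8:11198423-11312826, minus strand) had 0 UMIs in spinous and 6 in basal cells. The 2 genes start head to head and their annotated ends share 22 bases. Nid1 (chr13:13437551-13512269, plus strand) had 1 UMI in 33153931 spinous UMIs and 0 in 20936776 basal UMIs, which allows up to 0.143 UPM. Its relative Nid2 had 0 UMIs in every gate.

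**Figure D2:**
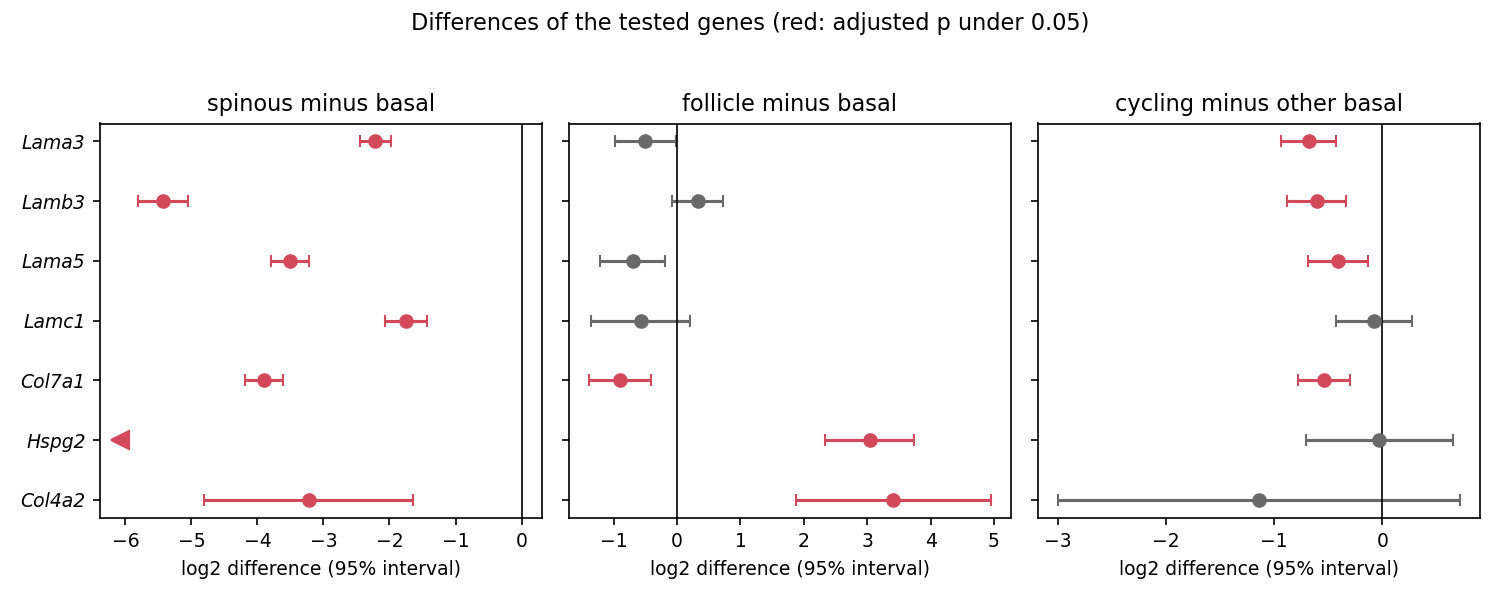
Log2 differences of the 7 tested genes with 95% intervals in 3 comparisons (x axis), from edgeR's quasi-likelihood test; red marks an adjusted p under 0.05. The triangle for Hspg2 in spinous cells is a bound from 3 counts, with no interval. All 7 lie below 0 for spinous minus basal, and Hspg2 lies above 0 for follicle minus basal. Lama3, Lamb3, Lama5 and Col7a1 lie below 0 for cycling minus other basal. Col4a2 passed the low-count limit through follicle cells alone, so its point, interval and colour for follicle minus basal are not read as a test.

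Cells that carry both basal and suprabasal keratins mark the step out of the basal layer. In these transitional cells, 4 of the 7 tested members were lower than in basal cells, 0 were higher and 3 did not pass (10.2% of all genes were lower and 12.8% higher). DESeq2 also called 4 lower and 0 higher, and 0 were higher at an unadjusted p of 0.05. Lamb3 had 29.2, 35.0 and 50.6 UPM in transitional cells, which do not reach the lowest basal value of 103. Its log2 difference was -1.45 ± 0.20 (adjusted p = 7.14e-06). Col7a1 had 58.4, 38.9 and 59.0 UPM in transitional cells, all below the basal values (log2 difference -0.66 ± 0.16, adjusted p = 0.0042). Lama5 had 63.3, 35.0 and 43.9 UPM (-0.62 ± 0.17, adjusted p = 0.0107), and Lama3 had 51.1, 38.9 and 41.3 (-0.58 ± 0.17, adjusted p = 0.0133). Transitional and basal values overlapped for Lamc1, at 7.30, 11.7 and 16.0 UPM in transitional cells, and it did not pass (-0.60 ± 0.26, adjusted p = 0.0999). Hspg2 rested on 7 UMIs in transitional cells (-1.03 ± 0.55, adjusted p = 0.195).

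The calls of Lama3, Lama5 and Col7a1 in transitional cells held without replicate 1. With the keratin gates at 1% the calls of Lamb3 (adjusted p = 0.0576), Lama3 (0.149), Lama5 (0.377) and Col7a1 (0.162) were all lost. Lamc1 passed there instead (adjusted p = 0.0493, edgeR). Without replicate 2, Lama3, Lama5 and Col7a1 had adjusted p = 0.125, 0.113 and 0.0686, and log2 differences of -0.48, -0.43 and -0.53. Without replicate 3, Lama3 and Lama5 had adjusted p = 0.113 and 0.111, with log2 differences of -0.61 and -0.65 that were no smaller than with all libraries (edgeR).

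Finer bins within cells of the basal keratin gate show the order of the fall without the single cutoff. The sum of the 9 genes was 358 ± 17.1 UPM in cells with under 0.05% of Krt1 plus Krt10, 452 ± 40.6 between 0.05% and 0.1%, 312 ± 25.2 up to 0.5%, 210 ± 37.4 up to 1% and 179 ± 26.0 up to 2% (SD, n = 3). The second bin was higher than the first in all 3 libraries. Lamb3 stood at 117 ± 13.4, 138 ± 15.0, 90.7 ± 15.1, 29.6 ± 15.4 and 50.3 ± 4.21 UPM along these bins. Lama3 changed more gradually, at 65.4 ± 6.35, 74.9 ± 5.13, 57.0 ± 1.52, 46.5 ± 7.53 and 39.0 ± 3.85 UPM. The bins held 1538, 359, 415, 115 and 70 cells, and the next bin, up to 4%, held 11 cells and is not read.

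**Figure D3:**
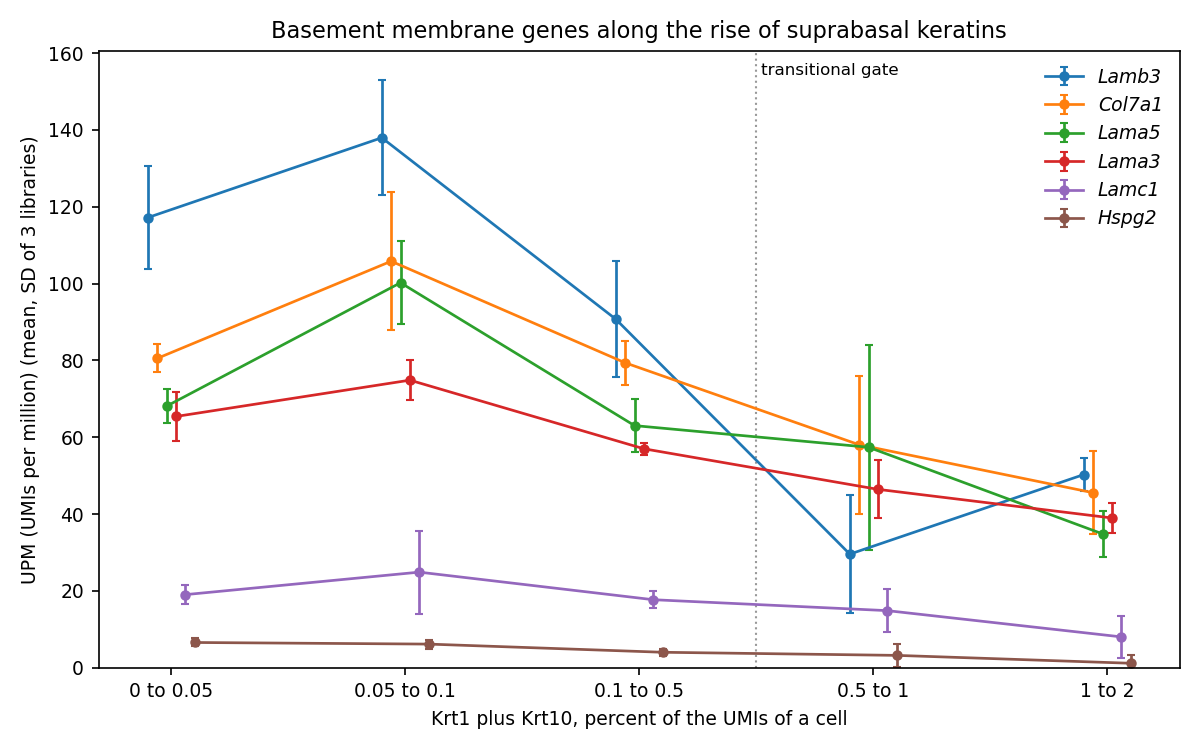
Mean level of 6 members in UPM (y axis; bars are the SD of 3 libraries) in cells of the basal keratin gate binned by Krt1 plus Krt10 as a percent of the cell's UMIs (x axis). Lamb3 drops between the bins 0.1 to 0.5 and 0.5 to 1, at 90.7 and 29.6 UPM, where the transitional gate begins.

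Between granular and spinous cells, the members no longer moved together. Of the 7 tested, 1 was lower in granular cells, 1 was higher and 5 did not pass (39.1% of all genes were lower and 30.3% higher, 69.4% in either direction). With total UMIs, 3 were lower, with Lama5 and Col7a1 added, and 0 were higher. Lama3 had 2.97, 1.41 and 0.739 UPM in granular cells, below all spinous values, a further fall of 4.60-fold (log2 difference -2.20 ± 0.34, adjusted p = 4.9e-06). Lamc1 had 5.34, 6.35 and 5.91 UPM in granular cells, against 3.46, 4.04 and 5.61 in spinous cells. These ranges overlap, and the call of Lamc1 depends on the scaling: the log2 difference was 1.11 ± 0.25 with TMM (adjusted p = 0.000424) and 0.38 with total UMIs (adjusted p = 0.152). Among the gamma chains, Lamc3 had 44 UMIs in granular cells and 1 UMI in spinous cells, at 5.94, 6.70 and 3.70 UPM in granular cells. The pooled ratio was 170 with an exact 95% counting interval of 29.0 to 6867.

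Follicle cells had another mix of the same genes than basal cells. Leaving out Col4a2, of the other 6 tested members 1 was higher, Hspg2 (9.00% of all genes were higher), 1 was lower, Col7a1 (7.00% were lower), and 4 did not pass. Hspg2 had 46.8, 65.0 and 59.6 UPM in follicle cells, against 6.73, 5.48 and 6.24 in basal cells. The follicle values are several times the basal ones in each library, 8.22-fold higher (log2 difference 3.04 ± 0.34, adjusted p = 1.03e-06). After each cell was thinned to 3000 UMIs, 17.8% ± 5.51 of follicle and 2.00% ± 0.304 of basal cells had an Hspg2 UMI. Without thinning these shares were 26.4% ± 2.23 of follicle and 5.57% ± 1.92 of basal cells. It was found in 0 of 2099 spinous cells, which allows a share of up to 0.143% at their median depth of 15047 UMIs. The 61 immune cells, at a median depth of 4996 UMIs, also held 0, but their limit of 4.92% is close to the basal share and does not set it apart from background. With the stricter cell filter, which asks for 1000 genes and allows 5% mitochondrial UMIs, the log2 difference was 2.27 (adjusted p = 0.0258, edgeR).

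Col4a2 had 13.4, 13.0 and 10.5 UPM in follicle cells, against 0.909, 1.01 and 1.06 in basal cells. The groups do not overlap, and the pooled ratio was 12.2 on 10 and 21 UMIs (exact 95% counting interval 5.15 to 27.2). Col4a1 had 0, 21.7 and 17.5 UPM in follicle cells, against 0.364, 0.432 and 0.118 in basal cells. Replicate 1 held 298933 follicle UMIs in all, too few to place its 0 above or below its basal value. The pooled ratio was 42.8 (exact 95% counting interval 14.1 to 143), with no test across libraries. The single Nid1 UMI of the follicle group came from replicate 3.

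None of the 4 laminin chains passed the test between follicle and basal cells with edgeR, where 2 of the 4 had intervals that leave out 0. Lamb3 had 127, 173 and 186 UPM in follicle cells, against 114, 129 and 103 in basal cells, and did not pass (log2 difference 0.32, interval -0.08 to 0.72, adjusted p = 0.303). Lama3 had 46.8, 47.7 and 59.6 UPM in follicle cells (-0.50, interval -0.97 to -0.02, adjusted p = 0.159). Lama5 had 40.1, 73.7 and 38.6 (-0.70, interval -1.21 to -0.19, adjusted p = 0.0542), and Lamc1 had 16.7, 8.67 and 17.5 (-0.58, interval -1.36 to 0.21, adjusted p = 0.372). Lama5 passed without replicate 2, with an adjusted p of 0.0282. Col7a1 had 30.1, 47.7 and 73.7 UPM in follicle cells, all below the basal values (log2 difference -0.90 ± 0.23, adjusted p = 0.009). It did not pass without replicate 1 (adjusted p = 0.183), without replicate 2 (0.0565) or in follicle cells with basal keratins only (0.209; edgeR throughout).

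Markers of dermal fibroblasts moved with the follicle group. The 6 fibroblast markers summed to 104, 26.0 and 59.6 UPM in follicle cells, against 18.4, 0.144 and 0.588 in basal cells. In follicle cells Dcn and Col1a2 made up most of this sum, Col3a1 and Lum were at 0, Col1a1 had 2 UMIs and Pdgfra 1 UMI. Melanocyte markers, 4 of 5 detected, summed to 3.35, 13.0 and 119 UPM in follicle cells, against 0.909, 0.576 and 2.35 in basal cells. Of 5 endothelial and 5 mural markers, 4 of each were at 0 in follicle cells, and immune markers were all at 0 there. Endothelial markers summed to 1.17 ± 2.03 and mural markers to 1.17 ± 2.03 UPM in follicle cells, against 0.871 ± 0.283 and 1.35 ± 0.647 in basal cells. In the 75 follicle cells with basal keratins, which held 1 Dcn UMI, Hspg2 stood at 54.3 UPM pooled. In the 44 without a keratin gate, which held 28 Dcn UMIs (23, 0 and 5 in replicates 1 to 3), Hspg2 stood at 72.5. In follicle cells with basal keratins only, the log2 difference from basal cells was 2.95 for Hspg2 (adjusted p = 2.99e-05, edgeR), and 6 of the 10 Col4a2 UMIs and 8 of the 10 Col4a1 UMIs came from them. Col1a2 was found in both kinds, with 12 and 10 UMIs. Among all follicle cells, 1 had 3 or more of the fibroblast markers and 1 had 3 or more of the melanocyte markers. The part of transcripts from other cell types in the levels of the whole follicle group was not tested.

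The other type IV collagen chains had different levels in follicle and basal cells. Col4a4, a chain of the network known from kidney and inner ear, had 30.1, 21.7 and 21.1 UPM in follicle cells, against 0.364, 0 and 0.235 in basal cells, from 20 follicle and 4 basal UMIs. It too passed the low-count limit through follicle cells alone, and no test is given. Its partner Col4a3 had 6 UMIs in follicle cells and 1 in basal cells, a pooled ratio of 154 (exact 95% counting interval 18.7 to 7093), and was not tested. Col4a5 had 6.69, 8.67 and 10.5 UPM in follicle cells, against 24.5, 20.9 and 19.3 in basal cells. It was 2.79-fold lower (log2 difference -1.48 ± 0.49, adjusted p = 0.0399), on 7 follicle UMIs. Col4a6 had 30.1, 17.3 and 14.0 UPM in follicle cells, against 32.7, 32.0 and 29.5 in basal cells, and did not pass (-0.76 ± 0.37, adjusted p = 0.188). In spinous cells Col4a5 was 2.00-fold lower than in basal cells (adjusted p = 2.91e-06) and Col4a6 was 8.01-fold lower (-3.00 ± 0.18, adjusted p = 4.78e-13).

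**Figure D4:**
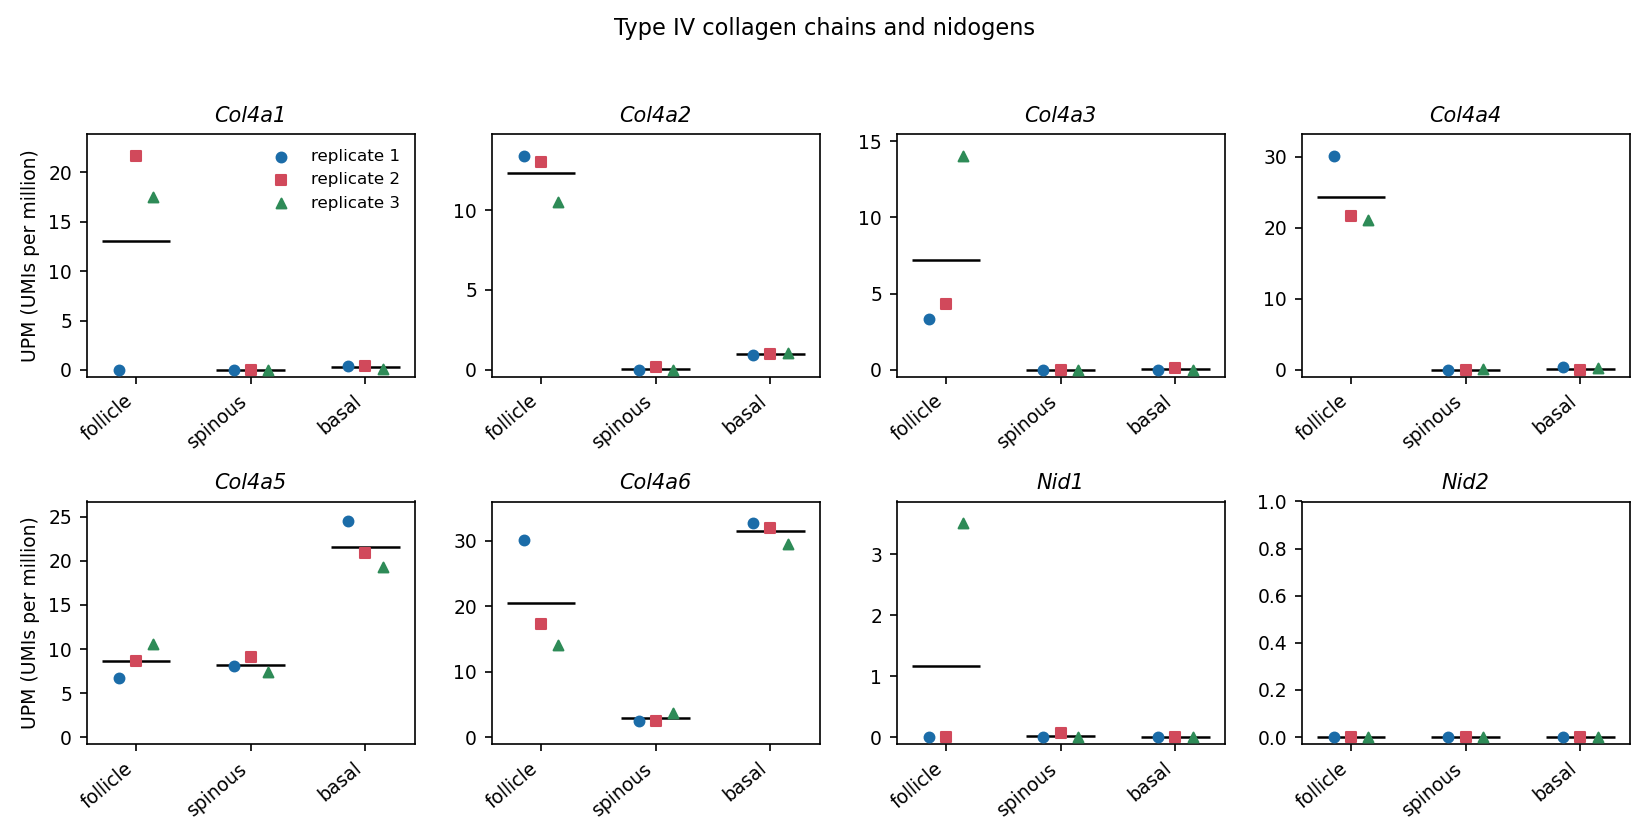
Levels in UPM of the 6 type IV collagen chains and both nidogens (y axis, linear, own scale per panel) in follicle, spinous and basal cells (x axis); points are the 3 libraries and bars their means. Mean levels of Col4a1 to Col4a4 are highest in follicle cells and those of Col4a5 and Col4a6 in basal cells, Nid1 has 2 UMIs in all and Nid2 has 0.

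Basal cells in the cell cycle were compared with the rest of the layer. Cycling cells, those with 2 or more of Mki67, Top2a, Cdk1, Birc5, Ube2c and Cenpf detected, numbered 465, against 1847 other basal cells. Of the 7 tested members 4 were lower in cycling cells, 0 were higher and 3 did not pass, where 15.1% of 10637 genes were lower and 17.4% higher. At an unadjusted p of 0.05, 0 members were higher, and DESeq2 called 2 lower and 0 higher. Lama3 had 53.5, 46.7 and 41.6 UPM in cycling cells, against 71.4, 74.4 and 70.0 in other basal cells (log2 difference -0.68 ± 0.12, adjusted p = 0.000104). Lamb3 had 81.5, 85.6 and 88.1 in cycling cells, against 128, 139 and 111 in other basal cells (-0.61 ± 0.13, adjusted p = 0.000738). Col7a1 had 62.3, 63.8 and 69.7 in cycling cells, against 95.8, 82.6 and 93.3 in other basal cells (-0.54 ± 0.12, adjusted p = 0.000736). For these 3 genes, and for Lama5, given next, the groups did not overlap.

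Lama5 had 46.1, 63.8 and 64.9 UPM in cycling cells, against 79.9, 78.3 and 70.0 in other basal cells (log2 difference -0.41 ± 0.14, adjusted p = 0.0208), and lost its call without replicate 1 (adjusted p = 0.266). Lamb3 missed the threshold with DESeq2 (adjusted p = 0.058), as did Lama5 (0.137). Lamc1 (-0.08 ± 0.17, adjusted p = 0.837) and Hspg2 (-0.03 ± 0.33, adjusted p = 0.967) did not pass in edgeR. Levels are relative to all UMIs, and cycling cells held more UMIs each: medians were 17705, 8692 and 12617 in cycling cells and 11422, 7273 and 7988 in other basal cells of replicates 1 to 3. The part of this depth in the differences was not tested.

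Within basal cells, the transcripts were thin and spread. After thinning to 3000 UMIs, which left out 214 basal, 68 spinous, 19 follicle and 7 immune cells with fewer and kept 2098 basal cells, 35.8% of cells had none of the 9 genes, 38.4% had 1, 19.0% had 2 and 0.191% had 5, the most seen. A Lamb3 UMI was found in 0.606% ± 0.306 of thinned spinous cells, against 29.8% ± 2.40 of basal cells. A Col7a1 UMI was found in 1.71% ± 0.299 of spinous cells, against 22.2% ± 1.96 of basal cells. The 61 immune cells were not free of keratinocyte transcripts. Their 6 spinous markers, Krt1 and Krt10 among them, summed to 38233, 6960 and 457 UPM in replicates 1 to 3. Of these cells, 1 each passed the basal, spinous and granular gates. Among the 61, which should lack the 9 genes, 4 had a Lamb3 UMI and 1 had a Col7a1 UMI before thinning. After it the immune shares were 16.6% ± 26.7 for Lamb3, where replicate 1 has 4 immune cells in all, and 0.599% ± 1.04 for Col7a1. Without thinning the Lamb3 shares were 2.23% ± 0.653 of spinous and 59.1% ± 8.04 of basal cells, and those of Col7a1 were 5.90% ± 1.15 of spinous and 47.6% ± 8.81 of basal cells. A Col7a1 UMI was found in 26.1% of thinned basal cells with a Lamb3 UMI and 20.0% of those without, a ratio of 1.31. For Lama3 and Lamb3 the ratio was 1.19, and for Lama5 and Lamb3 it was 1.05.

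The genes whose pattern was most like the summed members were Ltbp4, Capns1, Frem2, Itgb1, Bcam, Cdh3, Tspo and Cavin1. Their Pearson r with the sum lay between 0.988 and 0.993 on the log2 scale over 15 profiles (5 groups in each of 3 libraries, which share depth and library), among 5376 genes compared. Frem2, a matrix protein of the epidermal basement membrane, was at 44.1 UPM in follicle cells and, along differentiation, at 36.1 in basal, 19.0 in transitional and 2.15 in spinous cells. Bcam, a receptor for laminin alpha 5, was at 368 UPM in follicle cells, and at 311 in basal, 152 in transitional and 19.1 in spinous cells.

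Other genes of basement membrane matrix moved with the members between spinous and basal cells. Of 18 such genes, 12 were tested, and 11 were lower in spinous than in basal cells (34.2% of all genes were), with a median log2 difference of -3.25. Sparc, a collagen-binding matricellular protein, stood at 0.663 ± 0.107 UPM in spinous and 63.1 ± 13.1 in basal cells (-6.11 ± 0.23, adjusted p = 1.49e-16). Smoc2 (-5.66 ± 0.19) and the integrin ligand nephronectin, Npnt (-5.21 ± 0.29), followed. In follicle cells 7 of the 12 were higher than in basal cells and 1 was lower, beside 9.00% higher and 7.00% lower over all genes. Egfl6, known from the basement membrane of the follicle bulge, had 50.2, 65.0 and 66.7 UPM in follicle cells, against 7.64, 6.92 and 6.12 in basal cells (2.97 ± 0.34, adjusted p = 7.66e-07). Vwa1 was also higher (2.50 ± 0.38), and hemicentin Hmcn1, which is in the count but passed the low-count limit through follicle cells alone, had 18 UMIs in follicle and 2 in basal cells. Smoc2 was lower in follicle cells (-1.09 ± 0.25, adjusted p = 0.00264). Between granular and spinous cells 2 of the 12 were lower and 5 higher with TMM (39.1% and 30.3% of all genes). Granular and spinous cells held few UMIs of Sparc (12 and 22), Npnt (11 and 21), Smoc2 (27 and 76) and Egfl6 (10 and 17). Their pooled ratios on total UMIs had exact counting intervals that include 1. Vwa1 (0 and 20) and Hmcn1 (0 and 2) went the other way. The median log2 difference of the 12 between these groups was 1.09 with TMM, against -0.32 for the 7 tested members. No result with total UMIs is given for the 12, so this contrast is not read apart from the scaling.

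Among laminin chains outside the 9 genes, Lamb2, a beta chain, was lower in spinous cells. It stood at 4.89 ± 1.38 UPM in spinous and 28.1 ± 4.56 in basal cells (log2 difference -2.11 ± 0.18, adjusted p = 4.08e-10). Lamb1, the beta chain that pairs with Lama5 and Lamc1, had 3 UMIs in spinous and 65 in basal cells and was not tested. Of 7 further basement membrane collagens, 5 were tested and 4 were lower in spinous cells, beside 34.2% of all genes. The transmembrane collagen of hemidesmosomes, Col17a1, stood at 142 ± 10.0 UPM in spinous and 1165 ± 24.5 in basal cells (-2.66 ± 0.13, adjusted p = 2.5e-14). Col18a1, the proteoglycan collagen that yields endostatin, was lower in spinous cells (-4.42 ± 0.26) and higher in follicle cells, at 66.9, 95.4 and 84.2 UPM against 24.2, 20.0 and 34.4 in basal cells (1.47 ± 0.28, adjusted p = 0.000487).

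Of 16 tested among 23 genes that fold, modify and export matrix proteins, 8 were lower and 7 were higher in spinous than in basal cells, beside 34.2% lower and 35.8% higher over all genes. The lower ones included the collagen chaperone Serpinh1 at 0.787 ± 0.497 UPM in spinous and 64.1 ± 6.55 in basal cells (log2 difference -5.81 ± 0.19, adjusted p = 1.54e-17). The prolyl hydroxylase subunit P4ha1 was lower as well (-2.93 ± 0.17), and the lysyl hydroxylase Plod1 had 1 UMI in spinous and 98 in basal cells. Higher in spinous cells with TMM were the coat protein gene Sec23a (0.92 ± 0.17), Mia2 (0.73 ± 0.11) and the chaperone Creld2 (0.59 ± 0.15). In follicle cells 4 of the 16 were lower than in basal cells and 1, Sec24d, was higher (1.87 ± 0.45, adjusted p = 0.00485). Over all genes 7.00% were lower and 9.00% higher there. P4ha2 had 1 follicle UMI, and Sdf2l1 (-1.71 ± 0.51, 5 follicle UMIs) and Colgalt1 (-1.15 ± 0.28, 24 follicle UMIs) were the other lower genes with the widest differences.

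Of 15 tested among 16 receptors for this matrix, 8 were lower and 5 were higher in spinous than in basal cells, beside 34.2% lower and 35.8% higher over all genes, and the share of higher ones is thus near that of all genes. Lower were the integrin subunits Itga3 at 0.823 ± 0.741 UPM in spinous and 79.0 ± 2.90 in basal cells (log2 difference -6.03 ± 0.22, adjusted p = 6.99e-17) and Itga2 (-5.00 ± 0.27), and Bcam (-3.64 ± 0.09). Higher were the proteoglycan Sdc1 (1.41 ± 0.11, adjusted p = 3.63e-11) and Itga1, with 32 UMIs in spinous and 3 in basal cells. The collagen receptor Ddr2, which is in the count, had 184 UMIs in spinous and 2 in basal cells. Its pooled level exceeded the low-count limit of 3.53 UPM only in spinous (5.55) and granular cells (11.4), so no test is given. In follicle cells Itga3 (-1.79 ± 0.34), Itga6 (-1.22 ± 0.16) and Itgb4 (-0.50 ± 0.16) were lower than in basal cells. Sdc4 (0.54 ± 0.12) was higher there. Itga1, which passed the low-count limit through follicle cells alone, had 9 follicle and 3 basal UMIs.

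Among matrix proteases and their inhibitors, 15 of 18 were tested, and 8 were lower and 4 higher in spinous cells, beside 34.2% and 35.8% of all genes. The higher ones are no more than that share. Htra1 (log2 difference -3.53 ± 0.13), Mmp3 (-3.25 ± 0.17) and the inhibitor Timp3 (-2.93 ± 0.18) were lower, and Adam17 (1.07 ± 0.10), Plau (0.95 ± 0.14) and Mmp15 (0.71 ± 0.15) were higher than in basal cells. In follicle cells Timp2 had 79.2 ± 21.5 UPM, against 0.353 ± 0.211 in basal cells, and would not have passed the low-count limit without them, so no test is given. Timp3 had 293 ± 112 UPM in follicle cells, against 62.1 ± 6.22 in basal cells (2.10 ± 0.20, adjusted p = 4.93e-08). The proteases Adamts1 (-3.13 ± 0.25), Mmp3 (-3.09 ± 0.44) and Mmp28 (-2.22 ± 0.53) were lower in follicle cells, where they rested on 22, 11 and 5 UMIs. Of 10 interstitial collagens, which fibroblasts are known to make, 4 were tested. Col6a1 was higher in follicle than in basal cells (3.27 ± 0.41, adjusted p = 3.46e-06), beside the fibroblast markers given above. Col1a2 had 22 UMIs in follicle and 2 in basal cells and Col5a2 had 26 and 4, and as both passed the low-count limit through follicle cells alone, no test is given. In spinous cells Col12a1 was lower (-1.37 ± 0.19), and Col6a1 had 3 UMIs against 83 in basal cells.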

How the data were processed

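Ear epidermal cells of 3 libraries were counted with a droplet kit that reads the 5′ ends of transcripts, per the labels' protocols. Cell Ranger 3.1.0 and the build mm10 are named in the submitters' processing notes; the annotation and strand setting are not given in the sources used here. The deposited matrices are whole-number UMI counts of each gene in each cell, not normalized, and intervals and floors from them cover counting error only. Counts were summed per library and gate and fitted with TMM scaling in edgeR 4.0.16 under R 4.3.3, using its low-count filter, a quasi-likelihood test and Benjamini-Hochberg adjustment, called at 0.05. Library is a block, because each library gives every gate, so the profiles are paired by construction. The comparison of cycling cells used a second fit with basal profiles split. UPM values use all UMIs of a gate. Scrublet (scanpy 1.11.5) marked 30 doublets, which stayed in except in one alternative. The members, gates and gene lists were chosen with earlier results of these data known. All 9 members are named and, per list and direction, up to 3 called genes with the widest log2 difference in the spinous and follicle comparisons. Lamb1, Lamc3, Col4a3, Col4a5, Col4a6, Nid2, Col17a1 where not widest, and genes that describe cell groups were named after their values were seen. DESeq2 1.42.0, other scalings, filters and gates, and leaving out each replicate were the alternatives; the tests were checked on simulated data. One gene that the naming rule covers, and the laminin list's count, are not reported here.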

Additional observations from a re-analysis of the deposited data

Results flagged for a closer look

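The 187 cells that passed no gate were left out of every comparison, and UMIs of 7 members were found in them above the limit that a count of 0 allows. Pooled over the libraries, Lamb3 stood at 30.4 UPM (38 UMIs) in these cells, Lama3 at 25.6 (32 UMIs), Col7a1 at 23.2 (29 UMIs) and Lama5 at 21.6 (27 UMIs). Lamc1 stood at 12.0 (15 UMIs), Hspg2 at 6.41 (8 UMIs) and Col4a2 at 4.01 (5 UMIs). Of these cells, 58 had 3 or more immune markers. In the 187 cells, the 6 fibroblast markers summed to 617, 0 and 17.3 UPM in replicates 1 to 3. Of these markers 5 were at 0, so the sum is that of 1 gene, and 0 cells had 3 or more of them. The 9 follicle markers summed to 5137, 364 and 1587 UPM in replicates 1 to 3.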

How the results depend on the processing

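No result changed direction past a call under any alternative. Of 521 values of single members under alternatives, 482 kept their side of the threshold, 15 passed it newly and 24 lost it. In spinous cells 7 members were lower under each alternative but 1: with follicle cells kept in their layer Col4a2 was not tested and 6 were lower. For transitional against basal cells, the members called lower were 6 with the gates halved (3143 genes called, against 2488) and 1 with them doubled (1320). They were 3 with the stricter cell filter (2097 genes called), and 1 to 4 with a replicate left out (989 to 1992). With the gates doubled the 1 member was Lamc1, which was not called in the main fit. For granular against spinous cells, 3 members were lower with total UMIs and with total UMIs without the gate genes, where 0 were higher; 3 were higher with DESeq2 and 2 with the gates halved. For follicle against basal cells, 0 members were lower in follicle cells with basal keratins only (an alternative chosen after seeing the data; 1005 genes called, against 1728), with the follicle gate on thinned cells and with the stricter cell filter. In that comparison 2 were lower with the gates halved or doubled, with no low-count filter and without cells with markers of other types, and 0 to 1 with a replicate left out (1007 to 1415 genes called). For cycling against other basal cells, 2 were lower with DESeq2 and 3 to 4 with a replicate left out. Without the replicate block the counts of members called were 4, 7 and 1 lower for transitional, spinous and granular cells; of the single calls, that of Lama5 in cycling cells was lost (adjusted p = 0.0539). Depth limits Col4a1, Col4a2, Nid1 and, above the basal layer, Hspg2.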
